A study of Mus musculus with 4 samples.

Results

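To study chromatin accessibility at genes of the transforming growth factor β (TGF-β) pathway in small cell lung cancer (SCLC), the ATAC-seq peaks in and around 10 genes were compared between SMC and non-SMC. These are the ligand genes *Tgfb1*, *Tgfb3* and *Inhba*, the receptor genes *Tgfbr1*, *Tgfbr2* and *Tgfbr3*, the signal transducer *Smad3*, the inhibitory *Smad6* and *Smad7*, and the TGF-β-induced gene *Tgfbi*. They were listed by name, with earlier results of these data known. A peak belonged to a gene if it shared at least 1 base with the gene body or the 50 kb on either side of it. The 10 windows, of 118 to 283 kb, held 701 of the 489558 peaks of the 4 lists and 457 of the 357570 regions obtained when overlapping peaks of the lists were merged. The 10 genes are 10 of 21938 protein-coding genes.

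The SMC and non-SMC lines were sorted by flow cytometry from lung tumors of Rb1L/L Trp53L/L (RP) mice, SMC with high NCAM and low or absent CD44, and non-SMC with low NCAM and high CD44. All lines carry the same deletions, made by Cre from an adenovirus given into the airway, whose ubiquitous CMV promoter does not select a cell type. The labels give a mixed genetic background of C57Bl/6, Balb-c and S129 for all of them, describe every line as untreated, and do not state the age of the mice. There were 2 SMC and 2 non-SMC lines with 1 library each, so each value stands for 1 established line, and 2 against 2 libraries cannot give a two-sided exact permutation p below 0.333.

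Ligands of the TGF-β family bind a type II receptor, which phosphorylates a type I receptor, and the type I receptor in turn phosphorylates the receptor-regulated SMAD proteins, which enter the nucleus with SMAD4 and bind DNA together with other transcription factors such as AP-1. The inhibitory SMAD proteins are themselves induced by the pathway and close a negative feedback loop. In epithelial tumors the pathway is known both for growth arrest and for inducing mesenchymal genes.

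The 4 lists differed in depth. SMC lines 1 and 2 had 91057 and 153954 peaks, and non-SMC lines 1 and 2 had 115837 and 128710. Values of a type are given below in this order, line 1 before line 2. The read depth over the genome, recovered from the peaks' own statistics, was 0.456 and 1.54 reads per position in the SMC lines and 1.49 and 0.639 in the non-SMC lines. By this measure neither type was deeper in both lines. The study itself reports more total ATAC-seq reads for SMC than for non-SMC. A peak with a -log10 q of at least 5 is called strong here, and 14.3%, 17.1%, 38.0% and 19.5% of the lists were strong in this order. The labelled cell types were checked by promoter peaks: of 5 neuroendocrine markers the SMC lines had a promoter peak at 5 and 5 and the non-SMC lines at 3 and 2, whereas of 4 non-neuroendocrine markers (*Cd44*, *Vim*, *Axl*, *Wwtr1*) it was 1 and 4 in the SMC lines and 4 and 4 in the non-SMC lines, so that SMC line 2 did not differ from non-SMC. Strong promoter peaks were seen at 2 and 4 neuroendocrine markers in SMC and at 1 and 1 in non-SMC, and at 0 and 0 non-neuroendocrine markers in SMC and at 4 and 3 in non-SMC. The window of *Ncam1*, the gene of the sorting marker that is high in SMC, went against the label, with 2 and 2 strong peaks in SMC and 14 and 4 in non-SMC. Of 7 markers of leukocytes, endothelial cells and fibroblasts, a promoter peak was present at 3 and 2 in the SMC lines and at 4 and 5 in the non-SMC lines. The T cell gene *Cd3e* had 0 promoter peaks in any library. Among these markers, the promoter of *Col1a1*, a fibroblast collagen gene also used by mesenchymal tumor cells, had strong peaks in the non-SMC lines alone. The endothelial gene *Pecam1* had 0 and 0 promoter peaks in SMC and 1 and 1 in non-SMC, the one in non-SMC line 1 being strong. *Cdh5*, also endothelial, had 2 and 2 in SMC and 0 and 1 in non-SMC. The part of such cells in the results was not tested.

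The sequences below belong to regions that had a peak in each non-SMC line but none in SMC, and are shown as the leading sites of that pattern. Each is the stretch of 200 bases around the summit of the leading region of its gene, read from GRCm38 (mm10), and capitals mark the AP-1 motif TGACTCA on either strand. The *Smad3* and *Tgfbr3* stretches hold 1 AP-1 motif each and the *Tgfbi* and *Tgfbr2* stretches hold 0.
Smad3 (chr9:63743891-63744090, forward strand): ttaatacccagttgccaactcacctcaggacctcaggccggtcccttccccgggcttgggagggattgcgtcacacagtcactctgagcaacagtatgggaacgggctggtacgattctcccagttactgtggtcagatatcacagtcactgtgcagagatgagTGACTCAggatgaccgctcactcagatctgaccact
Tgfbr3 (chr5:107200316-107200515, forward strand): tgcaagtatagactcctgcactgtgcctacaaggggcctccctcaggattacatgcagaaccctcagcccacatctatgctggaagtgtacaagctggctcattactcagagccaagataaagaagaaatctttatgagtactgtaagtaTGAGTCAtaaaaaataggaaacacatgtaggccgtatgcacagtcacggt
Tgfbi (chr13:56664571-56664770, forward strand): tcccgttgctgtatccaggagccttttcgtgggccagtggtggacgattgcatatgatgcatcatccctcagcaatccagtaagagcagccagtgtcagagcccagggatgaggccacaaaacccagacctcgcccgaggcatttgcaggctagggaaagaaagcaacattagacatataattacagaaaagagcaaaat
Tgfbr2 (chr9:116152915-116153114, forward strand): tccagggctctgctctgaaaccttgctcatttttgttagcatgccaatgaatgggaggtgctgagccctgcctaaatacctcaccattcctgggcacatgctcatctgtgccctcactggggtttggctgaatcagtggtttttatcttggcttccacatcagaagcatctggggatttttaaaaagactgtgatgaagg
The *Smad3* and *Tgfbr2* stretches lie in intron 1 of their genes, the *Tgfbr3* stretch lies in intron 3, and the *Tgfbi* stretch lies downstream of the gene, 55148 bp from its transcription start site (TSS), where the nearest TSS is that of *Smad5*. The *Tgfbr2* region had the highest rank of all of them. Its fold enrichment, the pileup of reads over the local background of the same library, was 17.8 and 13.4 in the non-SMC lines, which is the 99.5th and 99.0th percentile of their lists.

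Over all 10 windows the number of peaks overlapped between SMC and non-SMC, while the number of strong peaks was higher in both non-SMC lines. The windows held 149 and 190 peaks in the SMC lines and 167 and 195 in the non-SMC lines. Per 10000 peaks of the list this is 16.4 and 12.3 in SMC and 14.4 and 15.2 in non-SMC, or 14.4 ± 2.84 against 14.8 ± 0.519 (mean ± SD, n = 2 lines each; exact permutation test, two-sided, p = 1.00). The groups overlapped. Leaving out SMC line 2 turned the sign of the log2 ratio of non-SMC to SMC from 0.04 to -0.15.

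Strong peaks were planned only as an alternative setting and were made a result of their own after seeing the data. The strong peaks numbered 10 and 20 in the SMC lines and 87 and 61 in the non-SMC lines. Per 10000 strong peaks of the list these are 7.66 and 7.60 in SMC and 19.8 and 24.3 in non-SMC, a ratio of means of 2.89 (7.63 ± 0.0387 against 22.0 ± 3.20, mean ± SD, n = 2; exact permutation test, two-sided, p = 0.333, the smallest this design allows). The log2 ratio of 1.53 depended on the threshold and was 2.82 with a -log10 q of at least 10 and 0.83 with at least 2. The groups did not overlap, and the log2 ratio was 1.37 between the lines numbered 1 and 1.68 between the lines numbered 2. In a bulk library, a region open in fewer cells and a region less open in every cell cannot be told apart.

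By gene, all 10 members had more strong peaks in both non-SMC lines than in either SMC line, an order seen at 32.2% of all protein-coding genes, and the opposite order was seen at 0 members and at 3.20% of genes. Since earlier results were known when the genes were listed, this count is a description of them. The shares of all genes given here were not adjusted for the length of the windows or for the number of peaks in them. The number of strong peaks depends on depth, so the share of the list's strong peaks that fell in each window was also compared. It was larger in both non-SMC lines at all 10 members, against 25.5% of genes, and in both SMC lines at 0 members, against 15.8% of genes. When every list was cut to its 13062 peaks of highest fold enrichment, a setting chosen after seeing the data, 5 members (*Tgfbr1*, *Tgfbr3*, *Smad3*, *Smad6* and *Tgfbi*) had more peaks in both non-SMC lines, against 12.5% of genes. For the number of all peaks, only *Smad3* and *Inhba* were higher in both non-SMC lines, that is 2 of 10 members against 14.9% of genes, and 0 members were higher in both SMC lines, against 13.5% of genes. The first count was 4 without SMC line 2 and 6 without non-SMC line 1. The second was 4 without SMC line 1, 2 without non-SMC line 1 and 3 without non-SMC line 2. Leaving out a library makes either order easier to meet at any gene. The share of all genes was not computed for these settings.

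**Figure D1:**
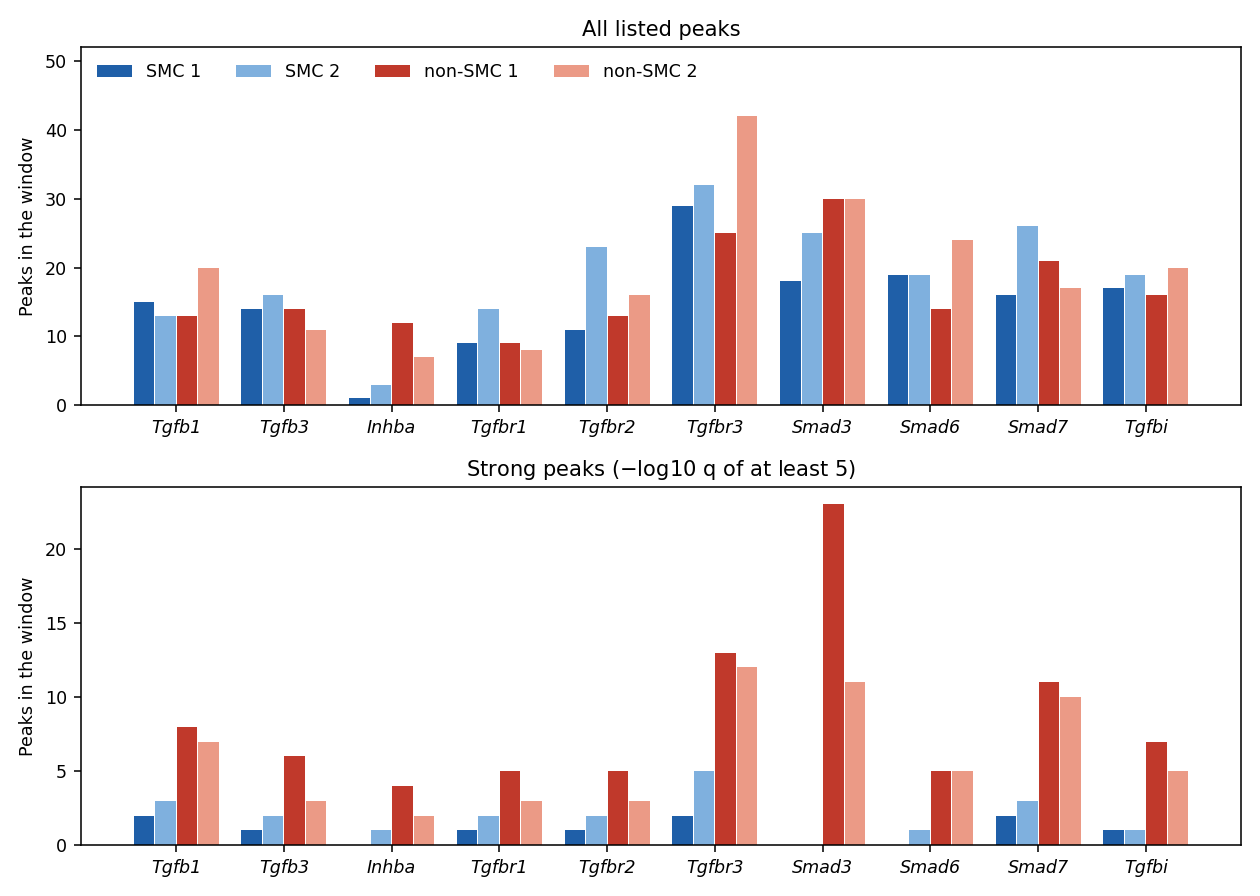
Peaks per gene window (vertical axis, number of peaks) for the 10 genes (horizontal axis) in the 4 libraries, 1 bar per library, with all listed peaks above and strong peaks below. The bars of all peaks overlap between the types except at *Smad3* and *Inhba*, whereas both non-SMC bars of strong peaks stand above both SMC bars at every gene, and *Smad3* has 0 strong peaks in either SMC line.

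Of the 457 regions, 44 were non-SMC-only, that is, with a peak in each of the non-SMC libraries and none in SMC. This is 9.63%, where 7.33% of all regions had this pattern. The opposite pattern, SMC-only, was found for 15 regions, 3.28%, against 4.37% of all regions. Regions with a peak in all 4 libraries numbered 23, 5.03%, against 3.81%. Most regions, 314 or 68.7%, came from 1 library, as did 76.9% of all regions. These patterns require a peak in each line of a type, and without non-SMC line 1 or 2 the non-SMC-only count was 135 or 99, while without SMC line 1 or 2 the SMC-only count was 119 or 90.

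The non-SMC-only regions lay mostly away from promoters. Of the 44, 24 were intronic, 11 upstream and 8 downstream of the member, and 1 was exonic. None covered the 5′ end of a protein-coding gene, whereas 9 of the 23 regions shared by all 4 libraries did. Start sites inside genes were not counted here, and the share over all regions was not computed. The member's own TSS was the nearest one for 34 of the 44. In 23 of the 44, 52.3%, the peak was strong in both non-SMC lines, against 37.6% of all non-SMC-only regions. Of the 15 SMC-only regions 0 had a strong peak in both SMC lines, against 20.3% of all SMC-only regions.

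Depth set a limit in SMC line 1. Scaled by the depth of the libraries, the lower of the 2 non-SMC pileups of a region would have reached the lowest pileup listed in SMC line 1 (3 reads) for 38 of the 44 regions, and the lowest listed in SMC line 2 (5 reads) for 44 of 44. The absence of the other 6 from SMC line 1 was not detectable at this depth. The lowest pileup is listed only where the local background is low. Reaching it therefore does not show that a region would have been listed at its own background. The SMC-only regions were not checked in this way.

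**Figure D2:**
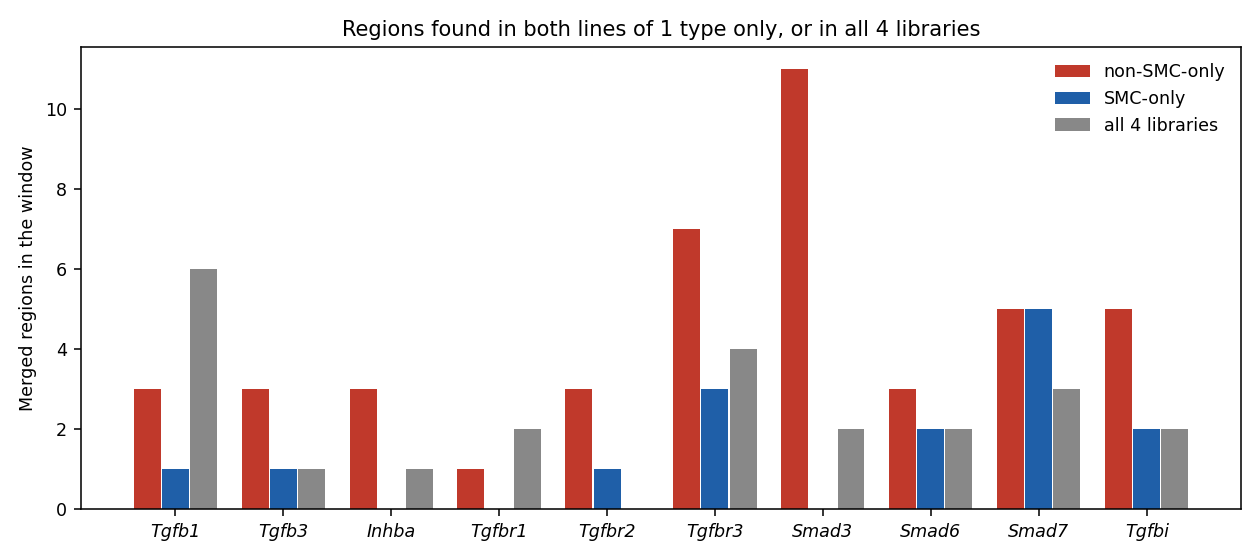
Number of merged regions (vertical axis) in each gene window (horizontal axis) that had a peak in both non-SMC lines only, in both SMC lines only, or in all 4 libraries. *Smad3* has 11 non-SMC-only and 0 SMC-only regions, *Tgfbr3* has 7 and 3, and *Smad7* has 5 of each.

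*Smad3*, the SMAD protein that carries the signal of TGF-β and activin receptors to DNA, showed the largest number of non-SMC-only regions of the 10 genes. The gene lies on the reverse strand at chr9:63646767-63757994. Its window held 18 and 25 peaks in the SMC lines and 30 and 30 in the non-SMC lines, and 0 and 0 strong peaks in SMC against 23 and 11 in non-SMC. Neither count overlapped between the types. Of its 70 regions 11 were non-SMC-only and 0 were SMC-only, and 1.03% of protein-coding genes had at least as many non-SMC-only regions in their windows. This share was not adjusted for the length of the window, which is 211 kb at *Smad3*. For all 11, the depth-scaled pileup reached the lowest listed pileup of both SMC libraries.

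The 11 regions formed several groups along the locus. Of the 11, 7 lay in intron 1 of *Smad3*, between 14003 and 83225 bp from the TSS. A pair lay 35914 and 45415 bp upstream, and another pair lay 146893 and 149806 bp from the TSS, inside the body of the neighboring gene *Aagab*. The leading region, in intron 1 at chr9:63743775-63744197, had a fold enrichment of 11.6 and 8.35 in the non-SMC lines, the 93.7th and 92.4th percentile. Its pileup at the summit was 64 and 22 reads over a local background of 4.60 and 1.75. The region 35914 bp upstream ranked at the 96.0th and 85.2nd percentile, and the one 146893 bp from the TSS at the 89.3rd and 96.7th. At the lower end, the region 15514 bp from the TSS ranked at the 31.1st and 23.0th percentile and was strong in neither line. The peak was strong in both non-SMC lines in 7 of the 11 regions.

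Only 2 regions of the *Smad3* window had a peak in all 4 libraries. The first, over the start sites of *Aagab* and *Iqch*, 155517 bp from the *Smad3* TSS, ranked alike everywhere, at the 82.1st and 82.7th percentile in SMC and the 83.5th and 83.0th in non-SMC. The second was the *Smad3* promoter, at the 42.9th and 60.8th percentile in SMC and the 63.8th and 87.9th in non-SMC. The promoter of *Smad3* thus ranked lower in both SMC lines, by a narrow margin between SMC line 2 and non-SMC line 1. With every list cut to the 91057 peaks of the shortest, the percentile was 42.9 and 33.8 in SMC and 53.9 and 82.9 in non-SMC, and the fold enrichment was 3.32 and 3.26 in SMC and 4.77 and 6.92 in non-SMC. The local background of the *Smad3* peaks, relative to that of the genome, had a median of 1.45 and 1.34 in SMC and 3.04 and 1.95 in non-SMC. Fold enrichment is already relative to it, and its part in the counts was not tested.

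The AP-1 motif was found within 100 bp of the summit in 7 of the 11 non-SMC-only regions at *Smad3*, with 8 occurrences in all. They are given with 10 bases on each side, motif in capitals, to show that the core recurs in different flanks.
*Smad3* site (chr9:63608167-63608193, forward strand): aagaggctccTGAGTCActgagaggag
*Smad3* site (chr9:63608211-63608237, forward strand): gggatgcaacTGAGTCAcaacctgtgg
*Smad3* site (chr9:63674813-63674839, forward strand): aaagcctgtgTGACTCActcctacacc
*Smad3* site (chr9:63678241-63678267, forward strand): tccatagttaTGAGTCAgaagccagag
*Smad3* site (chr9:63718905-63718931, forward strand): tgcctcgaagTGAGTCAccgcaacctg
*Smad3* site (chr9:63721898-63721924, forward strand): aggcaggaagTGACTCAgcagacattc
*Smad3* site (chr9:63744045-63744071, forward strand): cagagatgagTGACTCAggatgaccgc
*Smad3* site (chr9:63793872-63793898, forward strand): agcctcagagTGAGTCAcctcccgatc
The first pair comes from the same region in *Aagab*, the next 5 from intron 1, and the last from the region upstream of *Smad3*. The base at the centre of the motif only distinguishes its strands.

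**Figure D3:**
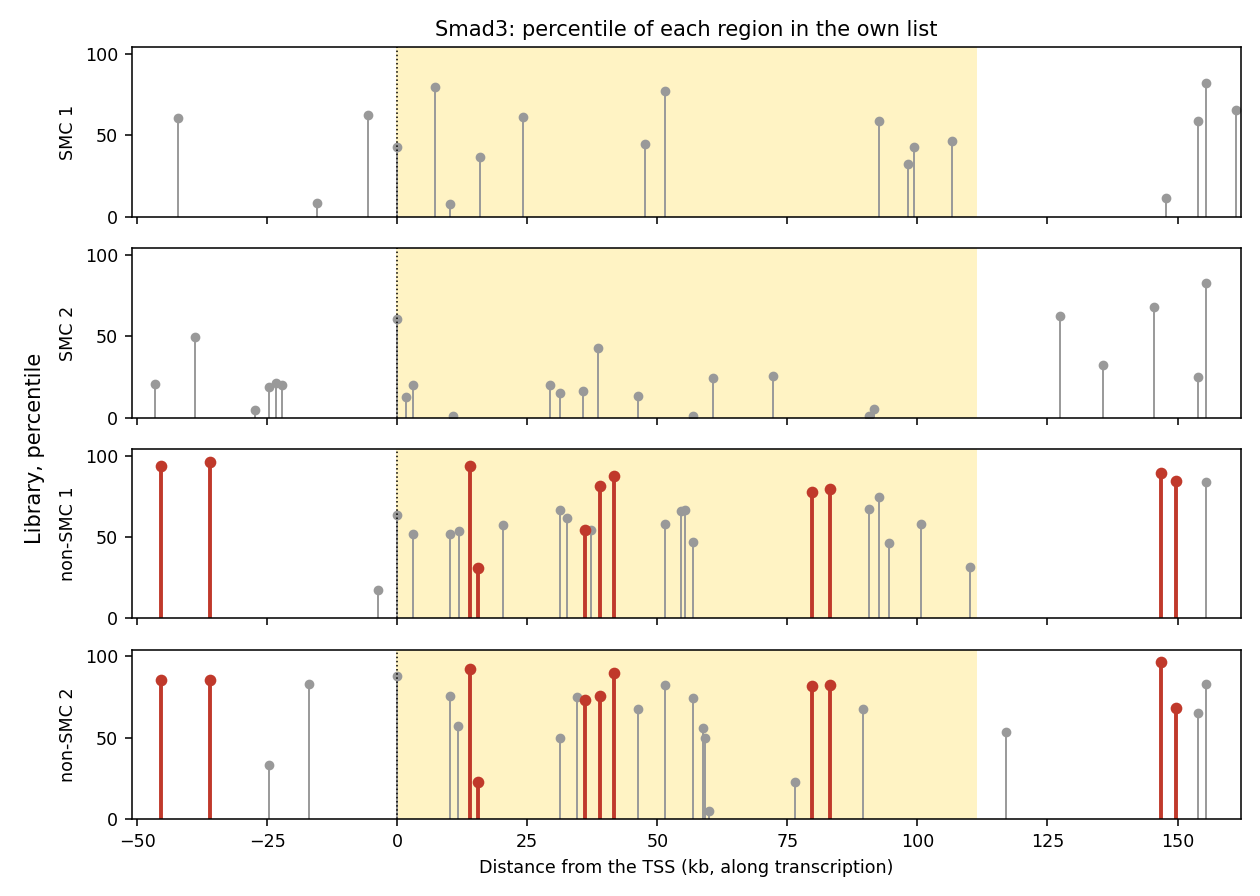
Regions of the *Smad3* window in the 4 libraries, by distance from the TSS along transcription (horizontal axis, kb) and by the percentile of the region's peak in the list of its own library (vertical axis, 0 to 100). Red marks the non-SMC-only regions, gray all others, the yellow band is the gene body and the dotted line the TSS. The 11 red regions stand in both non-SMC panels, and 0 gray regions of the SMC panels rise above the 82.7th percentile.

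Of the ligand genes, only *Inhba* had more peaks in both non-SMC lines. *Tgfb1*, which encodes the most widely expressed TGF-β ligand, had 15 and 13 peaks in SMC and 13 and 20 in non-SMC, and the groups overlapped. Its strong peaks were 2 and 3 in SMC and 8 and 7 in non-SMC. In the promoter, defined as the 6 kb around the TSS, all 4 libraries had a peak, and the highest ranked at the 38.4th and 63.7th percentile in SMC and the 77.6th and 82.2nd in non-SMC. This peak lay over exonic sequence 2390 bp past the TSS and not over the TSS itself. The window of *Tgfb1* also spans 6 other genes. Its leading non-SMC-only region, at the 89.3rd and 94.0th percentile, lies in the last exon of one of them, *Ccdc97*, in the 3′ UTR, and 5 of the 6 regions shared by all libraries lay nearer to the TSS of another gene than to that of *Tgfb1*.

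*Tgfb3* encodes a further TGF-β ligand. It had 14 and 16 peaks in SMC and 14 and 11 in non-SMC, with 1 and 2 strong peaks against 6 and 3. Its promoter peak did not separate the types, with the 66.3rd and 86.2nd percentile in SMC and the 67.1st and 81.8th in non-SMC. Its leading non-SMC-only region lay 63856 bp downstream of the TSS, inside the body of *Ttll5*, at the 82.3rd and 86.1st percentile.

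*Inhba*, which encodes the βA subunit of activin A, was besides *Smad3* the gene with more peaks in both non-SMC lines. Its counts were 1 and 3 in SMC and 12 and 7 in non-SMC, and the strong peaks were 0 and 1 against 4 and 2. The 1 peak of SMC line 1 was that of a region 570 bp past the TSS, which all 4 libraries shared at the 84.2nd and 92.8th percentile in SMC and the 57.1st and 87.4th in non-SMC. The further peaks of the non-SMC lines lay elsewhere in the window. The non-SMC-only regions lay 3978 bp upstream of the TSS, at the 74.9th and 79.3rd percentile, 2516 bp past it, at the 64.1st and 58.1st, and 12203 bp past it, at the 1.44th and 28.4th. The local background of these peaks was 1.00 and 1.00 times that of the genome in SMC and 2.68 and 1.97 times in non-SMC, and its part in the counts was not tested.

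Among the receptor genes, the promoter was open in every line at *Tgfbr1* and *Tgfbr3* and ranked higher in both non-SMC lines at *Tgfbr2*. *Tgfbr1*, the type I receptor, had a strong promoter peak in every line. The peak over its TSS had a fold enrichment of 10.9 and 8.67 in SMC and 10.2 and 8.78 in non-SMC. Its percentile, 98.5 and 96.0 in SMC against 90.6 and 93.5 in non-SMC, was higher in both SMC lines, while the fold enrichment overlapped. The window held 9 and 14 peaks in SMC and 9 and 8 in non-SMC, of which 1 and 2 against 5 and 3 were strong, and 1 region was non-SMC-only. This region, 25190 bp upstream of the TSS, ranked at the 49.0th and 79.8th percentile in non-SMC and was strong in neither line.

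*Tgfbr2*, the type II receptor that binds the ligand first, differed at its promoter. No peak was listed within 3 kb of its TSS in SMC line 1, and the peak over the TSS in SMC line 2 had a fold enrichment of 3.03, the 46.4th percentile, from 7 reads. In the non-SMC lines the peak over the TSS had a fold enrichment of 8.54 and 7.30, the 85.6th and 89.1st percentile, from 34 and 14 reads. The types did not overlap. The leading non-SMC-only region, in intron 1 at 22345 bp from the TSS, is the one whose sequence is given above. The other two lay 843 bp past the TSS and 46469 bp upstream, the latter at the 77.2nd and 87.9th percentile. The count of all peaks in this window, 11 and 23 in SMC and 13 and 16 in non-SMC, overlapped, and the strong peaks were 1 and 2 against 5 and 3.

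*Tgfbr3* encodes betaglycan, the co-receptor that presents ligand to the type II receptor. With 183060 bp it is the longest of the 10 genes, and its window held the most peaks, 29 and 32 in SMC and 25 and 42 in non-SMC. Strong peaks numbered 2 and 5 in SMC and 13 and 12 in non-SMC. Its promoter peak ranked alike in the types, at the 82.6th and 89.9th percentile in SMC and the 86.3rd and 89.7th in non-SMC. The contrast lay in distal sites. It had 7 non-SMC-only and 3 SMC-only regions, and the leading non-SMC-only region, in intron 3, ranked at the 91.3rd and 94.6th percentile. The leading SMC-only region, in intron 5, ranked at the 82.2nd and 82.7th percentile in SMC and was strong in neither line. A further region, 202187 bp from the TSS and beyond the 3′ end of the gene, had a peak in all 4 libraries, yet at the 32.1st and 12.6th percentile in SMC and the 99.6th and 99.9th in non-SMC. Its nearest TSS was that of *Cdc7*. Presence of a peak alone does not show such a difference.

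**Figure D4:**
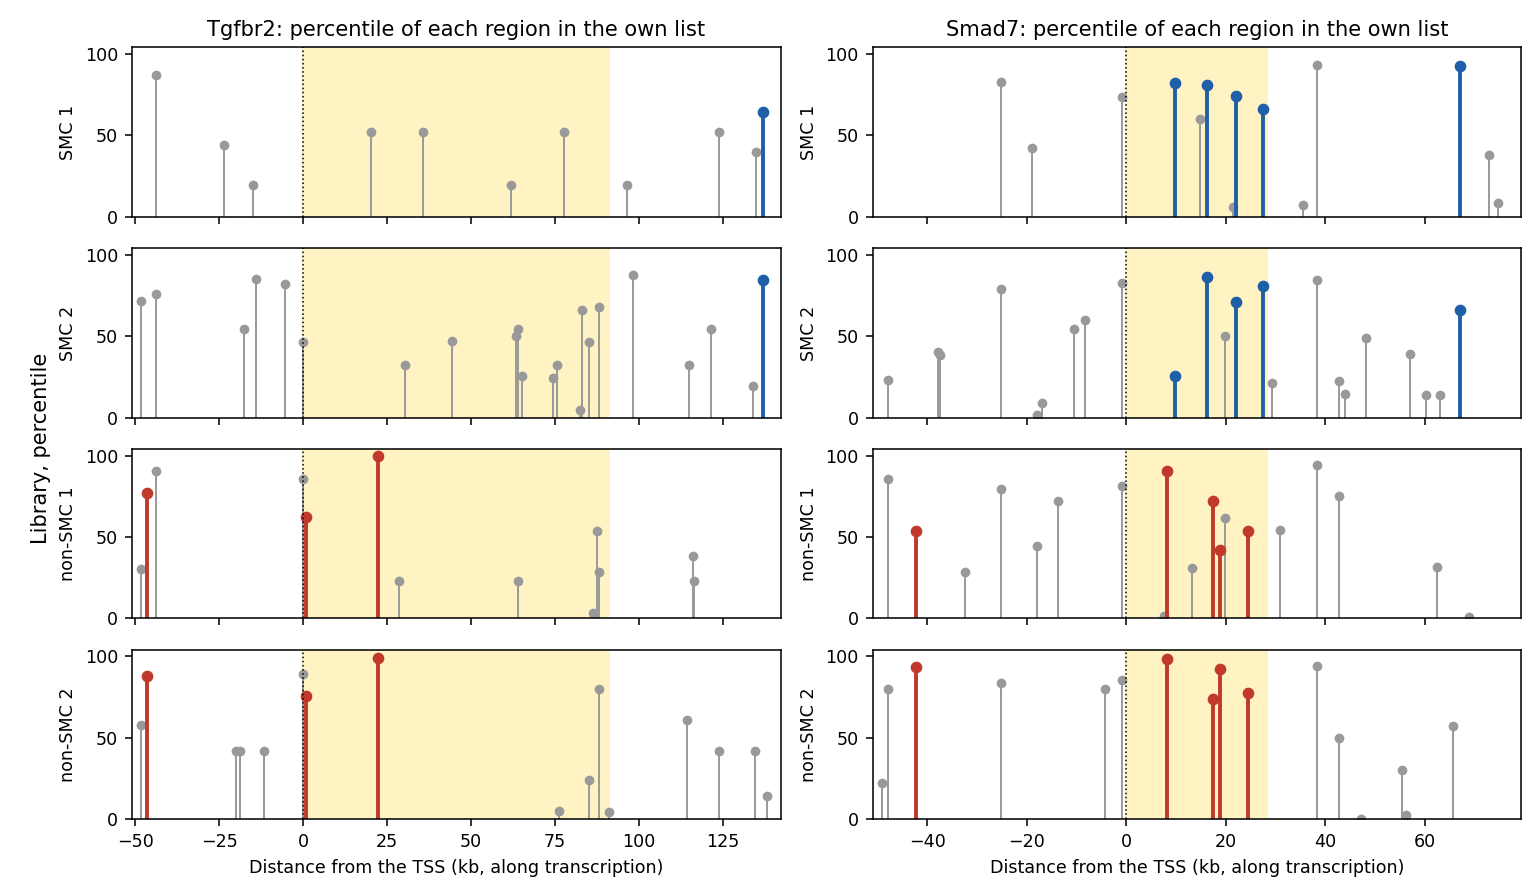
Regions of the *Tgfbr2* (left) and *Smad7* (right) windows in the 4 libraries, by distance from the TSS along transcription (horizontal axis, kb) and percentile in the list of the own library (vertical axis, 0 to 100). Blue marks SMC-only, red non-SMC-only and gray other regions, the yellow band is the gene body and the dotted line the TSS. At *Tgfbr2* the red region 22345 bp from the TSS stands at the 99.5th and 99.0th percentile, and at *Smad7* 4 blue and 4 red regions lie interspersed inside the gene.

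Of the inhibitory Smad genes, *Smad6* had the types apart at its promoter, and *Smad7* had sites of either type inside the gene. *Smad6*, which preferentially restrains bone morphogenetic protein signaling, had 19 and 19 peaks in SMC and 14 and 24 in non-SMC, with overlap. Its promoter had a peak in every library, at the 13.1st and 41.8th percentile in SMC and the 78.1st and 86.9th in non-SMC, without overlap. In reads, the highest promoter pileup was 5 and 15 in SMC and 43 and 17 in non-SMC, where SMC line 2 is the deepest library. An upstream region 28160 bp from the TSS was shared by all 4 libraries with ranks that did not separate the types, at the 77.4th and 88.8th percentile in SMC and the 79.2nd and 78.6th in non-SMC. Strong peaks in the window numbered 0 and 1 in SMC and 5 and 5 in non-SMC. The leading non-SMC-only region, 45982 bp upstream of the TSS, ranked at the 88.9th and 90.2nd percentile in non-SMC.

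*Smad7*, which blocks TGF-β receptors and marks them for degradation, had 16 and 26 peaks in SMC and 21 and 17 in non-SMC. Strong peaks were 2 and 3 in SMC and 11 and 10 in non-SMC. It was the 1 gene of the 10 with as many SMC-only as non-SMC-only regions, 5 of each. Inside the gene, 4 non-SMC-only regions lay 8170, 17517, 18787 and 24395 bp from the TSS, and 4 SMC-only regions lay 9817, 16152, 22046 and 27568 bp from it. None of these SMC-only regions was strong in both SMC lines. Whether they could have been detected at the depth of the non-SMC lines was not tested. The leading non-SMC-only region, in intron 2, ranked at the 90.5th and 98.2nd percentile of the non-SMC lists. The leading SMC-only region, in intron 3, ranked at the 80.8th and 86.5th percentile of the SMC lists. The promoter peak, 863 bp upstream of the TSS, was present in all 4 libraries at the 73.8th and 82.4th percentile in SMC and the 81.6th and 85.3rd in non-SMC. The local background was raised in every line, to 2.29 and 1.5 times that of the genome in SMC and 2.65 and 2.81 times in non-SMC.

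*Tgfbi* encodes an extracellular matrix protein named for its induction by TGF-β. It had 17 and 19 peaks in SMC and 16 and 20 in non-SMC, and 1 and 1 strong peaks against 7 and 5. Its promoter had a peak in all 4 libraries at a middle rank that overlapped between types, the 74.8th and 47.5th percentile in SMC and the 59.1st and 74.6th in non-SMC. This peak lay over the TSS except in non-SMC line 1, where it lay 1494 bp upstream and no peak covered the TSS. An SMC-only region also lay in the promoter, with summits 750 and 820 bp upstream. It ranked at the 44.2nd and 15.4th percentile in SMC and was strong in neither line. In contrast, a pair of distal regions ranked high in both non-SMC lines and had no peak in SMC. The first, 8126 bp upstream of the TSS, ranked at the 94.6th and 94.1st percentile, and the second, 55148 bp from the TSS, at the 97.2nd and 96.4th.

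Across the 10 promoters, the presence of a peak hardly differed, and its rank separated the types at 5. A promoter peak was listed for 9 and 10 members in SMC and 10 and 10 in non-SMC. None of the 10 had a promoter peak in the non-SMC lines alone, a pattern of 2.45% of genes, and 4 of 10 had it for strong promoter peaks (*Tgfb1*, *Tgfbr2*, *Smad3* and *Smad6*), against 5.30% of genes. The highest promoter peak ranked higher in both non-SMC lines at the same 4 genes, against 11.6% of genes, and higher in both SMC lines at *Tgfbr1*, 1 of 10, against 22.2% of genes. The other 5 overlapped. These ranks compare lists of unequal length and composition, and 2 further scales were tried after seeing the data. With lists of equal length, 5 members (the same 4 and *Smad7*) ranked higher in both non-SMC lines, against 11.4% of genes, and 2 (*Tgfbr1* and *Inhba*) in both SMC lines, against 22.2%. By fold enrichment 6 members (the same 4, *Smad7* and *Tgfbr3*) were higher in both non-SMC lines, against 26.7% of genes, and 0 in both SMC lines, against 10.1%. The order at *Tgfbr1* was thus not seen by fold enrichment.

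**Figure D5:**
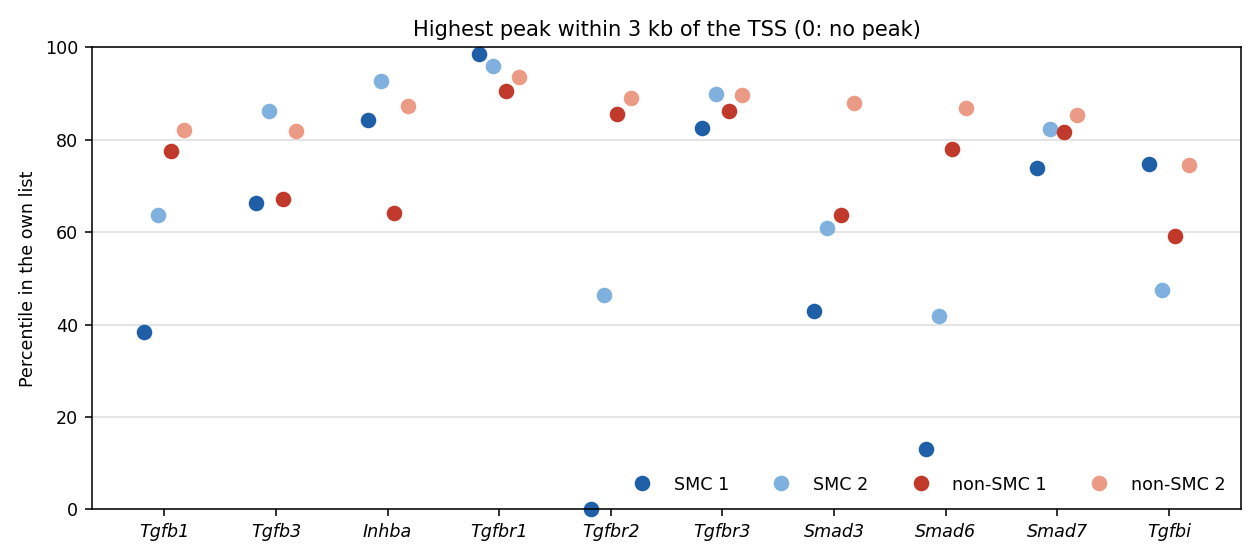
Percentile, within the list of its own library, of the highest peak within 3 kb of the TSS (vertical axis, 0 where no peak was listed) for the 10 genes (horizontal axis), 1 point per library. Both non-SMC points stand above both SMC points at *Tgfb1*, *Tgfbr2*, *Smad3* and *Smad6*, and *Tgfbr1* shows the reverse within a narrow range of 90.6 to 98.5.

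The promoters of *Tgfbr2*, *Smad3* and *Smad6* are given from RefSeq (GRCm38.p6), from 250 bases before the start to 30 after it, since in these 3 the peak that differed lay over or beside the TSS. Capitals mark the SMAD palindrome GTCTAGAC, and the AP-1 motif and the SMAD box CAGACA were searched as well on both strands.
Tgfbr2 (chr9:116175334-116175613, reverse strand): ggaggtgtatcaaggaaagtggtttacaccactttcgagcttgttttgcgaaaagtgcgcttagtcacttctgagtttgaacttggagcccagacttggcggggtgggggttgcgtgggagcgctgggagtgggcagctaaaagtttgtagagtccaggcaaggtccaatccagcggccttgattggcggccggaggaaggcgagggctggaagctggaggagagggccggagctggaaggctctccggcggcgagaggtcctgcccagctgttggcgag
Smad3 (chr9:63757965-63758244, reverse strand): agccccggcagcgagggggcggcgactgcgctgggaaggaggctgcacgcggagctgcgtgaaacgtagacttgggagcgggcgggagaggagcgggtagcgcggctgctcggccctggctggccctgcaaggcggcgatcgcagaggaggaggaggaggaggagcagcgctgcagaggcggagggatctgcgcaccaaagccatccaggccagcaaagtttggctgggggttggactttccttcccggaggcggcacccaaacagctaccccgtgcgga
Smad6 (chr9:64022030-64022309, reverse strand): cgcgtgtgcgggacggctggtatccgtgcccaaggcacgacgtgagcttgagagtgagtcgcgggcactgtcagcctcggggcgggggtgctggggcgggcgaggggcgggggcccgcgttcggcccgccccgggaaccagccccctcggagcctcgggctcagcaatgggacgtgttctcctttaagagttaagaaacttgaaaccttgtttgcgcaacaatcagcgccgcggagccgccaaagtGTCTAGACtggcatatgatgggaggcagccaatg
GC made up 59.6% of the *Tgfbr2*, 69.3% of the *Smad3* and 65.4% of the *Smad6* stretch, where the median of 32851 RefSeq promoters of the same length was 52.5%. Only the *Smad6* stretch held a searched motif, 1 SMAD palindrome, which 0.192% of all promoters of this length hold. The AP-1 motif occurred in 4.94% and the SMAD box in 19.6% of all promoters. The same palindrome was the only one within 100 bp of the summit among the regions of the 10 windows that were non-SMC-only, SMC-only or shared by all 4 libraries.

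Motif shares were compared between the classes of regions. AP-1 motifs stood within 100 bp of the summit in 17 of the 44 non-SMC-only regions, 38.6% (95% Clopper-Pearson interval 24.4 to 54.5%, for counting error only), in 1 of the 15 SMC-only regions, 6.67%, and in 3 of the 23 shared regions, 13.0%. Over the whole series the shares were 46.8%, 4.17% and 10.0%. The 44 regions are not replicates, and 11 of them lie at *Smad3*. The interval is thus no test against the whole series, whose share includes these regions. By gene the count was 7 of 11 at *Smad3*, 3 of 7 at *Tgfbr3*, 2 of 3 at *Tgfb1* and 2 of 5 at *Smad7*, then 1 of 3 at *Tgfb3*, 1 of 3 at *Tgfbr2* and 1 of 5 at *Tgfbi*, and 0 at *Tgfbr1*, *Smad6* and *Inhba*. At *Tgfbr2* the motif was in the region 843 bp past the TSS and not in the leading one.

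Of the other motifs, SOX (ACAANG) had the widest gap between the classes of the members, with 11 of the 44 non-SMC-only and 9 of the 15 SMC-only regions (37.8% and 49.6% over the series). Of the 9 SMC-only regions, 4 lay at *Smad7*. The TEAD motif GGAATG was in 11 of 44 non-SMC-only and 4 of 15 SMC-only regions of the members (19.2% and 9.44% over the series). The RUNX motif TGTGGT was in 10 and 2 of them (29.6% and 13.6% over the series). The E-box CAGCTG was in 12 and 1, or 27.3% and 6.67%, while over the series the order was reversed, at 14.0% and 21%. The SMAD box was in 11 and 3 (21.2% and 21.9% over the series). With 15 SMC-only regions, 1 region more or less moves each of these shares by several percentage points.

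The rest of the pathway was read from 36 further genes of ligands, receptors, SMAD proteins, latent TGF-β binding proteins, antagonists and targets. Of these, 19 had more strong peaks in both non-SMC lines, against 32.2% of all genes, and 1 (*Acvr1c*, a type I receptor of the activin branch) in both SMC lines, against 3.20%. The share of the list's strong peaks was larger in both non-SMC lines at 18, against 25.5% of genes, and in both SMC lines at 8, against 15.8%. For all peaks 12 were higher in both non-SMC lines, against 14.9% of genes, and 5 (*Inha*, *Smad4*, *Ltbp4*, *Fstl3* and *Lrrc32*) in both SMC lines, against 13.5%. The median number of non-SMC-only regions was 3 for the 10 members and 2.5 for these 36 genes, against 1 for all genes. For SMC-only regions it was 1 in all 3 sets. These medians and the shares of all genes were not adjusted for the length of the windows.

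*Ltbp1*, *Thbs1* and *Tgfb2* are given as examples, named after their values were seen. *Ltbp1*, whose product holds latent TGF-β in the matrix, had 19 and 41 peaks in SMC and 59 and 54 in non-SMC, with 4 and 4 strong peaks against 25 and 13, and 25 non-SMC-only against 4 SMC-only regions. *Thbs1*, the gene of the TGF-β activator thrombospondin 1, had 3 and 7 peaks in SMC and 15 and 11 in non-SMC, with 0 and 1 strong peaks against 7 and 3. Both separated the types in strong peaks without overlap, as did the ligand gene *Tgfb2*, with 1 and 2 in SMC and 9 and 6 in non-SMC.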

How the data were processed

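Accessible chromatin was measured by ATAC-seq in 2 SMC and 2 non-SMC lines. Per the study's methods, reads were mapped to mm10 with Bowtie2 2.3.4, duplicates were removed and peaks were called per library with MACS2 2.1.1, with settings not given in the sources used here. The authors deposited 1 peak list per library with, for each summit, a fold enrichment (a ratio of pileup to local background), the -log10 of p and q, and a score, which was not used. The other deposited columns give positions. Only the 19 autosomes and the sex chromosomes were used, which dropped 61 to 85 peaks per library. These values, and the length of a list, depend on the depth of the library. Peaks were compared by presence, by percentile in the own list, and as strong peaks (-log10 q of at least 5), also as a share of the list's strong peaks and with lists of equal length, and none of these removes the effect of depth entirely.

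Genes and start sites are those of GENCODE M21 on GRCm38, with the 5′ end of the gene as TSS. Intervals that share at least 1 base overlap. Pileup and background were recovered from fold enrichment and p, which MACS2 takes from a Poisson distribution, and all but 3 to 5 summits per library were solved. Overlap counts and merging gave 0 differences from bedtools on 5000 randomly placed peaks per library, and the recovery was checked on 18544 simulated summits. The scripts ran in Python 3.11.15 with pandas 2.3.3, numpy 2.4.6, scipy 1.17.1 and pysam 0.24.0. Between types the only test was the exact permutation test over the 4 libraries. Nothing says that the lines of a type came from separate mice, so the spread may be that between lines of 1 animal.

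All 10 members were described, with their promoter peaks and the leading non-SMC-only region, whose lower percentile over its 2 lines was highest. The leading SMC-only region, chosen alike, was described only for *Tgfbr3* and *Smad7*. *Tgfb1*, *Tgfb3*, *Tgfbr2*, *Smad6* and *Tgfbi* also had such a region. Sequences were chosen from the members with the most non-SMC-only regions, with ties ordered by that percentile, leaving out exonic ones and one not reported here. RefSeq promoters matched 7 of the 10 members. The AP-1 sites of *Smad3*, the promoter ranks and the use of strong peaks as a result of their own were added after seeing the data. Strong peaks had been planned only as an alternative setting for the results on all peaks. The members and the lists were chosen with earlier results of these data known.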

Additional observations from a re-analysis of the deposited data

Results flagged for a closer look

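The number of all peaks moved in opposite directions between the lines numbered 1 and between the lines numbered 2 at 6 of the 10 genes. The number is only a name, since nothing says that lines with the same number are related. This was picked out because the signs differ, and the difference was not tested. From SMC to non-SMC, the count at *Tgfb1* changed by -2 peaks between the lines numbered 1 and by 7 between the lines numbered 2, at *Tgfbr3* by -4 and 10, at *Smad6* by -5 and 5, and at *Tgfbi* by -1 and 1. At *Tgfbr2* it changed by 2 and -7 and at *Smad7* by 5 and -9. Strong peaks were more numerous in the non-SMC line for both numbers at each of these 6 genes.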

How the results depend on the processing

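With only strong peaks, the members with more peaks in both non-SMC lines numbered 10 rather than 2, the SMC-only regions 0 rather than 15, the promoters with a peak in both non-SMC lines only 4 rather than 0, and the log2 ratio of peaks per 10000 was 1.53 rather than 0.04. With 3 kb around the gene body there were 26 non-SMC-only and 8 SMC-only regions and 1 member with more peaks in both SMC lines, and with 100 kb there were 75 non-SMC-only regions, since the windows are smaller or larger. Leaving out each library in turn gave 2 to 6 members with more peaks in both non-SMC lines, 0 to 4 in both SMC lines, 49 to 135 non-SMC-only and 20 to 119 SMC-only regions, 0 to 1 promoters, and a log2 ratio of -0.15 to 0.26, negative without SMC line 2. For counts of regions this follows from requiring fewer libraries. A member is also called more easily when a library is left out. The share of all genes was not computed for the other windows or with a library left out. The AP-1 share was 20.5% within 50 bp of the summit, a narrower window, 43.2% within 250 bp and 47.2% for strong peaks. Under equal list lengths, a reciprocal overlap of 50%, a 2 kb promoter or the start sites of all transcripts the counts stayed within 1.5 times of those given, and the log2 ratio was 0.18 with equal list lengths.

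The labels number the lines 1 and 2 within each type and do not say that lines with 1 number are related. With the replicate number as a block, the log2 ratio was 0.06 for all peaks and 1.52 for strong peaks, and the calls by gene, region and promoter were not run with it. Chosen after seeing the data, lists of equal length left 5 members with more peaks in both non-SMC lines in place of 10 (log2 ratio 1.62), -log10 q thresholds of 10 and 2 left 7 and 7 (log2 ratio 2.82 and 0.83), windows of 3 kb and 100 kb left 7 and 8 (log2 ratio 2.01 and 1.28), and leaving out each library left 10 with a log2 ratio of 1.37 to 1.67. Without the *Smad3* window 9 of the other 9 members kept the order, with a log2 ratio of 1.18. Among these alternatives for strong peaks, the share of all genes was computed only for lists of equal length, at 12.5%. Members with a higher promoter rank in both SMC lines numbered 2 with lists of equal length and 0 by fold enrichment, in place of 1. SMC line 1 was the shallowest library, and absence from it is the least certain. No alternative can bring the exact p below 0.333.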
